A study of Mus musculus with 4 samples.

Results

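The genes that encode receptors for GABA and glutamate were examined at their promoters in mouse embryonic stem cells. They were taken by symbol from the protein-coding genes of the GENCODE vM1 annotation on mm9: every symbol that starts with Gabr or Gabbr, or with Gria, Grik, Grin, Grid or Grm followed by a digit. This gave 48 of 22367 genes: 21 for GABA receptors, 26 for glutamate receptors, and Grid2ip, which the symbol rule takes although it encodes a scaffold protein of delta receptors. Values of single genes are given below for most of them, and group counts cover all 48. The symbol rule uses no measured value, although the group was chosen with earlier results of these data known.

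The study asked which genes Jarid1b occupies in embryonic stem cells and how the mark it removes depends on it. All 4 chromatin immunoprecipitation (ChIP-seq) libraries came from the E14TG2a.4 line of mouse embryonic stem cells, which needs no feeder layer and was kept on gelatin with LIF. An antibody to Jarid1b gave 2 libraries, from cells labelled only as E14 ESCs. An antibody to H3K4me3, the trimethyl mark on lysine 4 of histone H3, gave the other two: 1 after transduction with the LKO scramble lentivirus and 1 after the LKO Jarid1b shRNA lentivirus, both under puromycin selection. They are called the scramble and the knockdown library here. No level of Jarid1b RNA or protein was analysed here, so the knockdown itself was not checked, and each condition has 1 library and 1 shRNA construct.

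GABA is the main inhibitory and glutamate the main excitatory transmitter of the brain. Each acts on ligand-gated channels, which assemble from several subunits (GABA-A receptors, and the AMPA, kainate and NMDA receptors), and on slower receptors coupled to G proteins (GABA-B and the metabotropic glutamate receptors). H3K4me3 sits on nucleosomes at the start of active and poised genes, above all at CpG-rich promoters, and Jarid1b, the product of Kdm5b, is an enzyme that takes methyl groups off this lysine. In embryonic stem cells many genes of later lineages, neural genes included, carry H3K4me3 without being strongly transcribed.

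The promoters of these genes range from dense CpG islands to sequence almost free of CpG, and the H3K4me3 and Jarid1b values below vary with that composition. The 150 bases just upstream of the transcription start site (TSS) are therefore given for the 4 receptor promoters with the highest knockdown over scramble ratio of H3K4me3 (Gabbr2, Grin2c, Grm4 and Grid1), for Gabrg1, which had a negative ratio, and for Gabra6, which carried no H3K4me3. Each was read from the mm9 genome on the strand of its gene, 5′ to 3′, and capitals mark every CG, a motif that reads the same on both strands. The positions were chr4:47004746-47004895 (minus strand), chr11:115128558-115128707 (minus), chr17:27650287-27650436 (minus), chr14:35632861-35633010 (plus), chr5:71233857-71234006 (minus) and chr11:42134575-42134724 (minus).
Gabbr2: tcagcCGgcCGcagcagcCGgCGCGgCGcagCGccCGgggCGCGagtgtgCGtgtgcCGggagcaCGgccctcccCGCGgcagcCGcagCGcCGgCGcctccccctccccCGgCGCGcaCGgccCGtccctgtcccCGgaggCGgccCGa
Grin2c: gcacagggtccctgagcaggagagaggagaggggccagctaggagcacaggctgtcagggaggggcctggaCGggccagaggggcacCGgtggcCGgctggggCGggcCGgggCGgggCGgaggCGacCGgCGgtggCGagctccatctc
Grm4: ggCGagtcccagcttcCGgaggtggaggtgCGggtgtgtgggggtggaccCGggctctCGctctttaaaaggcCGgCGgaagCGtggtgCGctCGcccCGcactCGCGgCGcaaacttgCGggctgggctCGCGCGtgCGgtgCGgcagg
Grid1: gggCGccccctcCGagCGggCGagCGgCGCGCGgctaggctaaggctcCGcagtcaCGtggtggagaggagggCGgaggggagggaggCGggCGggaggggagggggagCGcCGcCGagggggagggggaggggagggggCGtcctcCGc
Gabrg1: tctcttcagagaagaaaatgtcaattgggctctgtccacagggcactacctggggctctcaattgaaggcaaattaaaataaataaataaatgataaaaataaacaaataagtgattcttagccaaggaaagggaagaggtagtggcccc
Gabra6: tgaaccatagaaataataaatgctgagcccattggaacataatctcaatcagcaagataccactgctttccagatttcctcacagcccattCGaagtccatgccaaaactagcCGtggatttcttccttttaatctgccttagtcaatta
The stretch held 27 CG in Gabbr2, 20 in Grm4, 18 in Grid1 and 11 in Grin2c, against 2 in Gabra6 and 0 in Gabrg1. At least 1 CG stood in the same 150 bases of 43 of the 48 genes and of 87.4% of all 22367 promoters, with medians of 7 and 6. The count alone did not order the receptor promoters: its median was 8.5 over those later called higher in the knockdown library and 12 over those compared and not called.

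Reads were counted within 1 kb upstream and downstream of the gene-level TSS, after keeping 1 read per strand and 5′ position. The libraries then held between 1602370 and 5158330 reads, and a window at the genome rate held 3.39 and 1.25 reads in the Jarid1b libraries, 4.03 in the scramble library and 2.06 in the knockdown library. Repeated positions had made up 31.5% of the scramble rows and 7.56% of the knockdown rows. The Jarid1b pair differed by no more than sampling noise over 12603 promoters with at least 10 reads (chi-square per degree of freedom 0.996). Replicate 2 had 16.8% of its plus-strand positions in common with replicate 1, 9.52 times the median of other offsets. The pair was therefore counted as 1 sample, and a call in both is no check between cultures. Of 10 stem cell marker promoters, 9 carried H3K4me3 in the scramble library and 8 in the knockdown library, against 60.0% and 59.9% of all promoters. In the scramble library 7 of 9 neural progenitor and 8 of 11 neuron marker promoters also carried it. Presence of the mark therefore does not by itself identify the cells.

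Most receptor promoters already carried H3K4me3 in the stem cells. In the scramble library 34 of 48 (70.8%, Wilson 95% interval 56.8% to 81.8%) were enriched over background (genome-wide or within 10 kb, whichever was larger), at a Benjamini-Hochberg adjusted p of at most 0.05 over all promoters in a Poisson test that covers counting error only. The share over all promoters was 60.0%. In the knockdown library 35 of 48 (72.9%, 59.0% to 83.4%) were enriched, against 59.9% of all promoters. Both intervals for the receptor genes include the share of all promoters. Enrichment was found in both libraries for 32 genes, in the scramble library only for 2, Gabrg1 among them, in the knockdown library only for Gabrq, Grik5 and Grin2c, and in neither for 11.

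Levels of the mark were modest. The median receptor promoter held 3.68 RPM (reads scaled to the library's total of reads kept) in the scramble library and 10.1 in the knockdown library, against 6.01 and 9.49 over all promoters. Gabbr1, the GABA-binding subunit of the GABA-B receptor, had the most scramble reads, 167, with 131 in the knockdown library. Gria4, an AMPA receptor subunit, held 66 and 30 reads, and Grik3, a kainate receptor subunit, 64 and 141. Scramble counts over all 48 promoters ran from 0 to 167, with a median of 19.

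**Figure D1:**
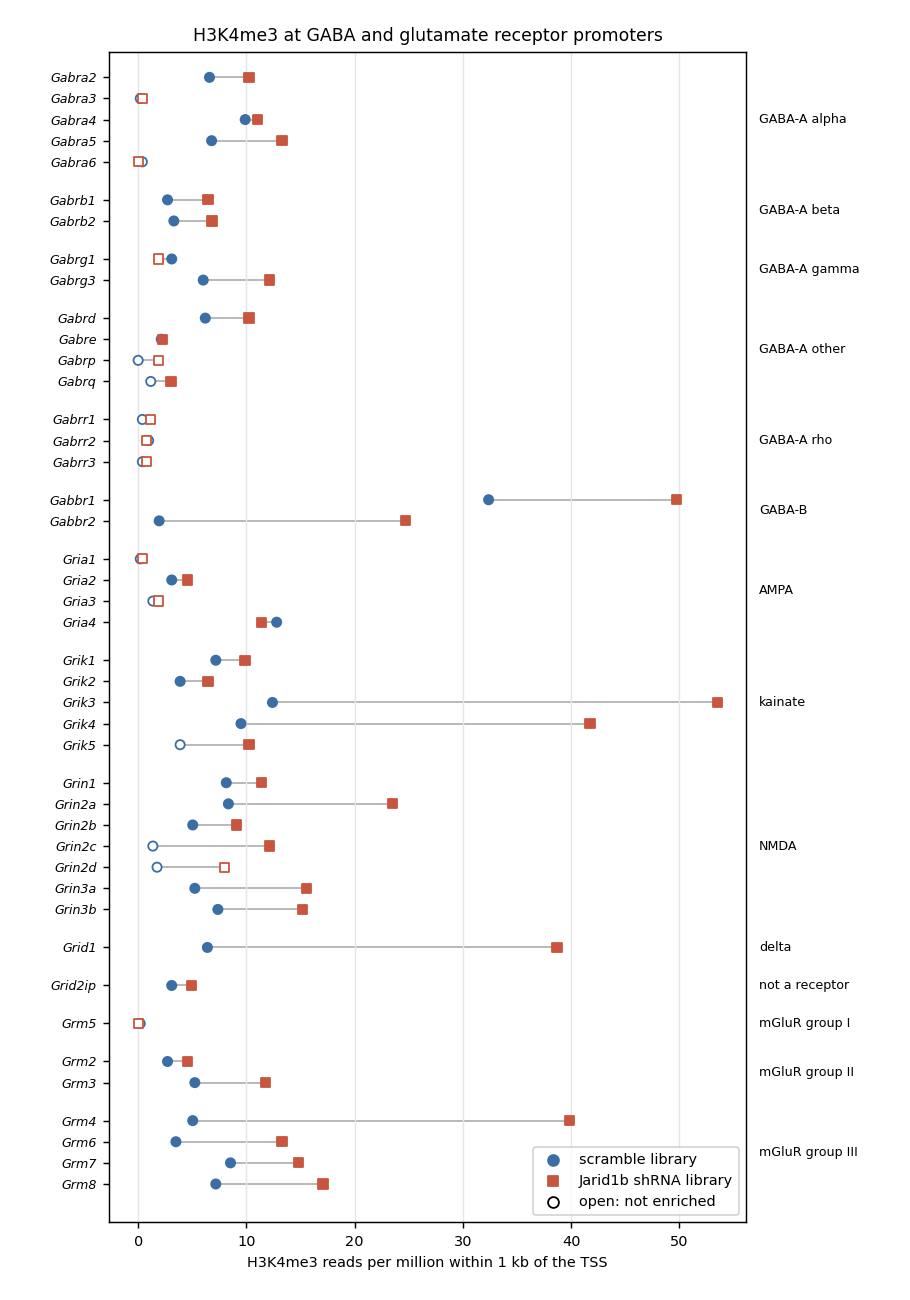
H3K4me3 in RPM within 1 kb of the TSS (x axis) of 43 of the genes, ordered by receptor class, in the scramble library (blue circles) and the knockdown library (red squares). Filled symbols are enriched over background and grey lines join the 2 libraries. Gabbr1 is the highest scramble promoter at 32.4, and Grik3 reaches 53.5 in the knockdown library from 12.4.

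The ratio of the knockdown to the scramble library could be compared at 35 receptor promoters, those with enrichment in at least 1 of the libraries and 20 or more reads in sum. The promoters of Gabre and Gabrq were enriched but held too few reads, and the other 11 were enriched in neither. H3K4me3 was at least 2-fold higher in the knockdown library, with a 95% counting interval that excluded 0 on the log2 scale, at 18 of 35 promoters (51.4%), against 24.0% of the 13273 promoters compared in all. It was lower by the same rule at 0 of 35, against 2.37% of all. The median log2 ratio was 1.002 (order-statistic interval over promoters, which are not replicates, 0.72 to 1.25), and 0.41 over all compared promoters. With 1 library per condition there was no test between conditions and no spread between cultures to set these ratios against.

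Of the 35 compared promoters, 32 had a positive ratio, as did 9224 of the 13273 compared in all. Gabrg1 and Gria4 were among the 3 receptor exceptions, and the interval of each of the 3 included 0. A further 3 promoters, Grm7, Gabra5 and Gabbr1, had intervals above 0 but ratios under 2-fold. Of these, Gabbr1 became -0.11 with the GC trend of all compared promoters removed and -0.18 relative to background bins of the same GC content, and Gabra5 became 0.17 relative to those bins and 0.02 with trends of GC and level removed. The rule cut close to the median of the group: Gabrg3 was inside at 1.01 and Gabra5 outside at 0.97.

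**Figure D2:**
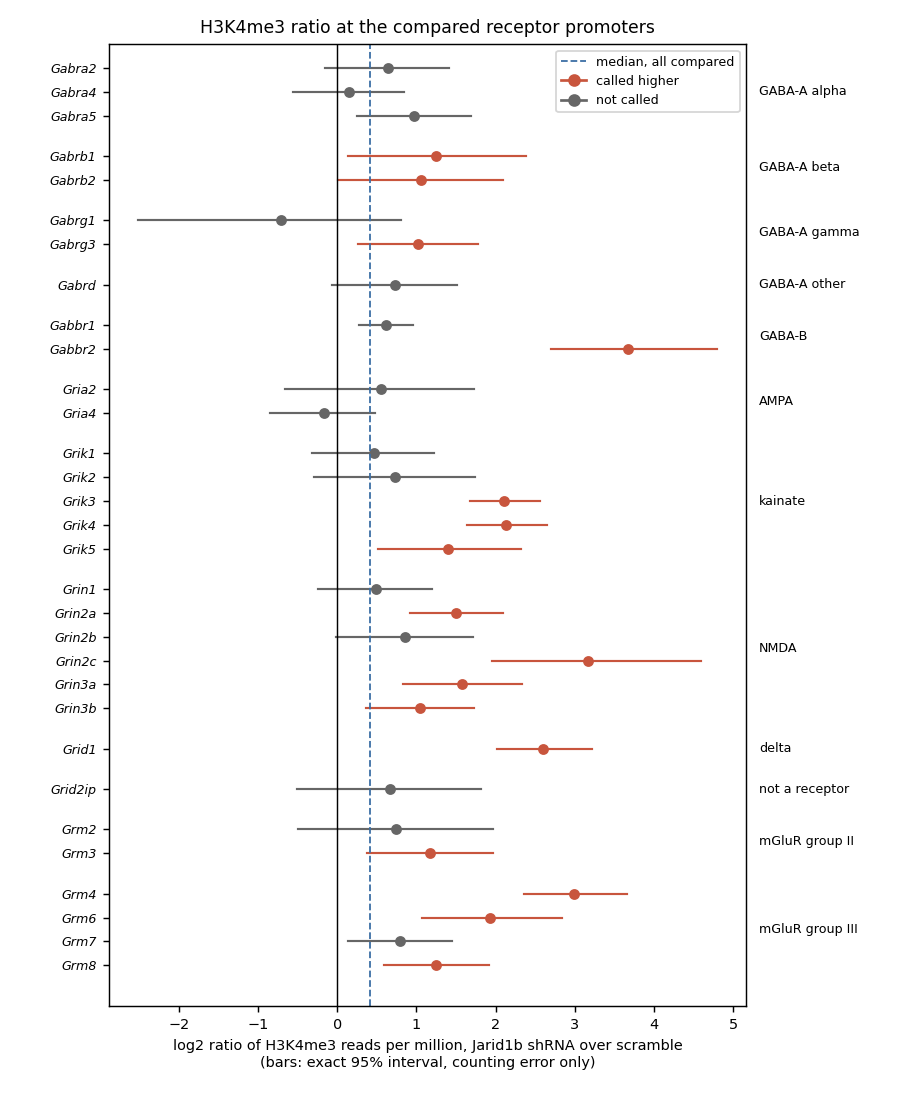
The log2 ratio of H3K4me3 RPM, knockdown over scramble (x axis), of 31 of the compared promoters by receptor class, with exact 95% intervals that cover counting error only. Red points are called higher, grey points are not called, and the dashed line is the median of all compared promoters, 0.41. Gabbr2, Grin2c, Grm4 and Grid1 lie above 2.5.

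Among GABA-A receptor genes, which encode the subunits of the chloride channel that carries fast inhibition, calls included the beta subunits Gabrb1 and Gabrb2 and the gamma subunit Gabrg3, and none of the alpha subunits. Gabrb1 held 14 scramble and 17 knockdown reads (8 and 4 Jarid1b reads), a log2 ratio of 1.25. Gabrb2 held 17 and 18 (9 and 6 Jarid1b reads), a ratio of 1.05 whose interval, 0.01 to 2.10, nearly reached 0. Near-equal counts give a higher RPM in the knockdown library because 2635705 reads were kept there and 5158330 in the scramble library.

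The alpha subunits, which form the GABA binding site together with beta subunits, had 4 compared promoters of 6. All 4 had positive ratios and none was called higher, against 24.0% of all compared promoters. Gabra2 held 34 scramble and 27 knockdown reads with 16 and 9 Jarid1b reads, a ratio of 0.64. Gabra5, an extrasynaptic subunit of the hippocampus, held 35 in each H3K4me3 library with 13 and 9 Jarid1b reads. Gabra3 and Gabra6 were near background, with 1 read in each library and with 2 and 0. No test compared alpha with beta subunits.

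Of the gamma subunits, which anchor the receptor at synapses, Gabrg3 was called higher at 31 and 32 reads (12 and 3 Jarid1b reads), a ratio of 1.01. Gabrg1 had a negative ratio, with 16 scramble and 5 knockdown reads (7 and 1 Jarid1b reads), a ratio of -0.71 with an interval of -2.51 to 0.81. The Gabrg1 counts are thin, its interval spans both directions, and with the GC trend removed its ratio was 0.42. The 3 rho subunits, known from the retina, had 2 to 5 scramble and 2 to 3 knockdown reads and no enrichment. In the remaining GABA-A genes, the delta subunit Gabrd had a ratio of 0.72 without a call. Gabrq, the theta subunit, held 6 scramble and 8 knockdown reads (11 and 2 Jarid1b reads) and Gabrp, the pi subunit, 0 and 5. Both are too thin to compare.

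The GABA-B receptor pairs Gabbr1, which binds GABA, with Gabbr2, which couples to the G protein. Gabbr2 had the highest ratio of all receptor genes: 10 reads in the scramble library and 65 in the knockdown library, or 1.94 and 24.7 RPM, a log2 ratio of 3.67 (2.70 to 4.80). Its Jarid1b counts were 22 and 4, which passed the threshold in replicate 1 only. Gabbr1 carried far more of the mark in both libraries and had a ratio of 0.62 (0.28 to 0.96), with 23 and 5 Jarid1b reads. The partners stood at 32.4 and 1.94 RPM in the scramble library and at 49.7 and 24.7 RPM in the knockdown library.

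The AMPA receptor subunits, which carry most fast excitation, were the ionotropic glutamate class with no call: Gria2 (16 and 12 reads, ratio 0.55) and Gria4 (ratio -0.17, interval -0.84 to 0.47, and 0.20 with the GC trend removed, 9 and 4 Jarid1b reads) were compared, and Gria1 and Gria3 were not enriched. The kainate receptors, which act on both sides of the synapse, had 5 compared promoters and 3 calls, against 24.0% of all compared promoters. Grik3 held 64 scramble and 141 knockdown reads, the highest knockdown count of the receptor genes, with 22 and 10 Jarid1b reads and a ratio of 2.11 (1.67 to 2.56). Grik4, a high-affinity kainate subunit, held 49 and 110 (13 and 7 Jarid1b reads), a ratio of 2.14 (1.64 to 2.65). The other high-affinity subunit, Grik5, held 20 and 27 (16 and 6 Jarid1b reads), a ratio of 1.40, and was enriched in the knockdown library only. In the GC band of Grik4 and Grik5, 60% to 65%, 56.1% of all compared promoters were called higher. In that of Grik3, 65% and above, 78.8% were. Relative to background bins of the same GC content, Grik3, Grik4 and Grik5 had ratios of 0.92, 0.94 and 0.21 and lost the call. The low-affinity subunit Grik1 was not called at 37 and 26 reads (12 and 7 Jarid1b reads), a ratio of 0.46.

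NMDA receptors are calcium-permeable channels gated by glutamate together with glycine or serine. Of their 7 genes, 6 were compared and 4 called higher, against 24.0% of all compared promoters. The obligatory subunit Grin1 was not called, at 42 and 30 reads and a ratio of 0.48. Grin2c, a glutamate-binding subunit of the cerebellum, held 7 scramble and 32 knockdown reads (13 and 6 Jarid1b reads), a ratio of 3.16 (1.96 to 4.59). Grin2a held 43 and 62 (24 and 11 Jarid1b reads), a ratio of 1.50 (0.91 to 2.09). Relative to background bins of the same GC content its ratio was 0.30, without a call. Among the glycine-binding subunits, Grin3a held 27 and 41 (13 and 5 Jarid1b reads) with a ratio of 1.57, and Grin3b 38 and 40 (15 and 5 Jarid1b reads) with a ratio of 1.04. Grin2d had only 9 and 21 reads at its gene-level TSS, but a second annotated TSS 4247 bases away had 73 and 70, so the outermost start misses its H3K4me3.

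The delta receptors bind cerebellins at synapses rather than acting as ordinary glutamate channels. Grid1 was called higher: it held 33 scramble and 102 knockdown reads, a ratio of 2.60 (2.02 to 3.21), and had the most Jarid1b reads of the receptor genes, 42 and 15. The scaffold gene Grid2ip held 16 and 13 and was not called, at 0.67.

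The metabotropic receptors signal through G proteins in 3 groups. In group III, whose members act mostly at presynaptic terminals, all 4 promoters were enriched for Jarid1b (7.96% of all promoters) and 3 were called higher (24.0% of all). Against a background of the same GC content, Grm4 alone of the 4 kept its Jarid1b call. With windows of 500 bases Grm4, Grm7 and Grm8 lost the Jarid1b call, and with 2 kb Grm6 and Grm7 did. Grm4 held 26 scramble and 105 knockdown reads (24 and 15 Jarid1b reads), a ratio of 2.98 (2.35 to 3.66). Grm6, the receptor of retinal ON bipolar cells, held 18 and 35 (21 and 8 Jarid1b reads), a ratio of 1.93 (1.07 to 2.84). Grm8 held 37 and 45 (25 and 9 Jarid1b reads), a ratio of 1.25. Grm7 was not called at 44 and 39 (10 and 7 Jarid1b reads), a ratio of 0.79. Ratios within group III ran from 0.79 to 2.98.

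In group II, Grm3 was called higher at 27 and 31 reads (6 and 6 Jarid1b reads), a ratio of 1.17, and Grm2 was not, at 0.75. In group I, the receptors coupled to phospholipase C, Grm5 had 1 and 0 reads. Over all glutamate receptors 13 of 22 compared promoters were called higher with a median of 1.15, and over all GABA receptors 5 of 12 with a median of 0.85, against 24.0% and 0.41 over all compared promoters.

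Along the promoters, reads in both libraries lay where H3K4me3 usually does, just downstream of the TSS. Over the 18 promoters called higher, the mean profile reached 2.03 RPM per 100 bases at 250 bases downstream in the knockdown library, 41.9 times its flank 4 to 5 kb away, and 0.585 at 350 bases in the scramble library, 12.9 times its flank. Over the 17 compared and not called, the maxima were 1.24 and 0.726, or 16.6 and 14.5 times the flank. The calls were made on these same reads, so the wider gap between libraries over the 18 follows from the calls and adds no support. The flanks were 0.0485 (knockdown) and 0.0452 (scramble) RPM per 100 bases in the promoters called higher, and 0.0748 and 0.0502 in those not called. Among the 17 not called, Gabbr1 by itself held 47 scramble and 48 knockdown reads 4 to 5 kb downstream. Their flanks, and the multiples of the flank, therefore lean on this gene and were not computed without it. The 13 promoters not compared showed little signal at the TSS. The separate rises in their profile came from Grin2d, which held 74 scramble and 54 knockdown reads 2 to 3 kb upstream and 71 and 65 reads 4 to 5 kb downstream.

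**Figure D3:**
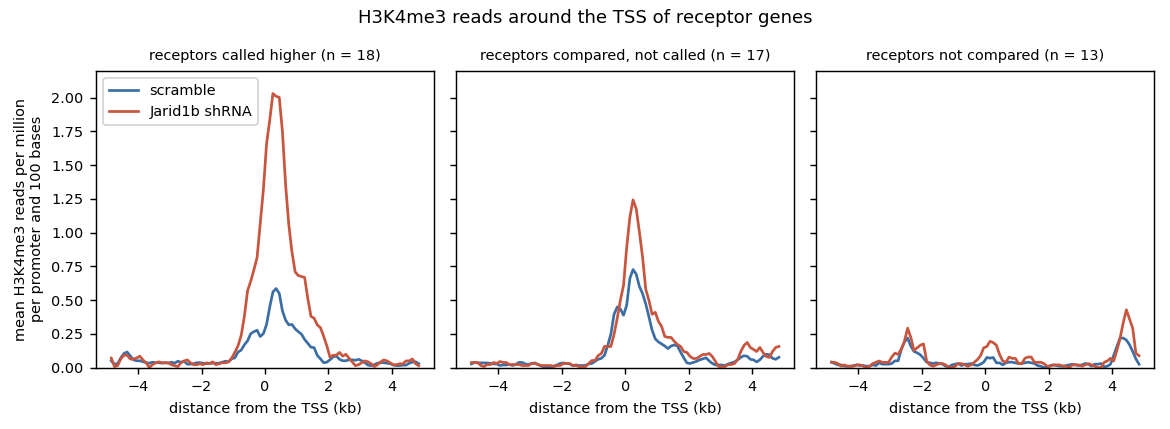
Mean H3K4me3 RPM per promoter and 100 bases (y axis, running mean of 3 bins) against distance from the TSS in kb, in the scramble (blue) and knockdown (red) libraries, for receptor promoters called higher, compared and not called, and not compared. The knockdown line peaks at 2.03 in the first panel and 1.24 in the second. The panels were split by calls made on these same reads.

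The ratio followed base composition, in the receptor genes as over all promoters. Across the 35 compared receptor promoters, Spearman's rho between GC content of the window and the log2 ratio was 0.70, and it was 0.63 across all 13273. These points share the same pair of libraries, so the values only describe them. The same slope was present away from genes: in 1 kb background bins over 5 kb from any TSS, the log2 ratio of the libraries ran from -0.65 in the class of lowest GC to 0.80 at 60% to 62.5% GC, and was 1.19 in the 216 bins above 62.5%. The part of the shRNA and the part of library preparation in this slope cannot be told apart with 1 library each.

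Within bands of GC content from 45% up, the receptor promoters lay above the median of all promoters, by differing amounts. At 45% to 50% GC the medians were 0.44 over 4 receptor promoters and -0.25 over all. Below 45% only Gabrg1 was compared, and its -0.71 was under the median of -0.63. At 50% to 55% GC the receptor median was 0.79 against 0.17 for all compared promoters, and 4 of 10 were called higher against 11.4%. At 55% to 60% the medians were 0.90 and 0.65, with 5 of 10 against 30.1%. At 60% to 65% they were 1.45 and 1.10, with 4 of 6 against 56.1%, a count close to the background. The 4 promoters at 65% and above, Gabbr2, Grm4, Grid1 and Grik3, were all called, against 78.8%, with a median of 2.79 against 1.48. These counts are small and no test was made.

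**Figure D4:**
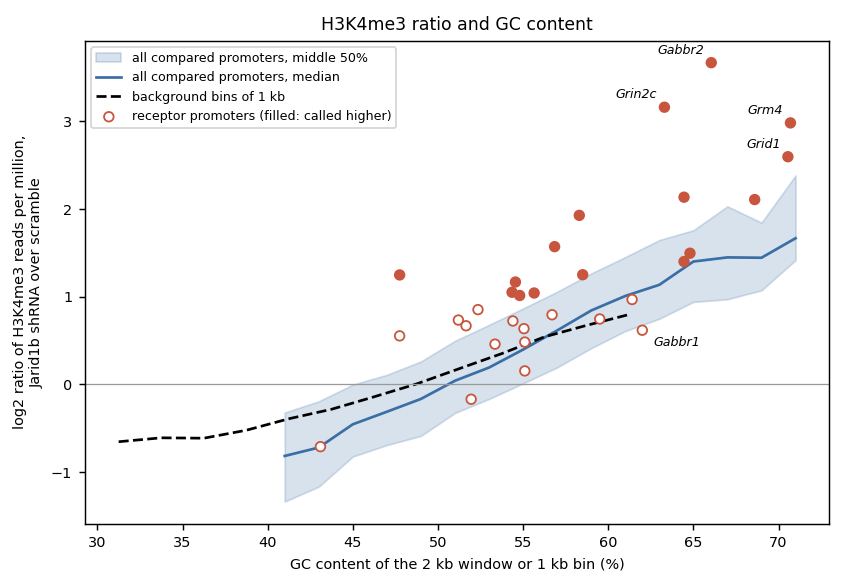
The log2 ratio of H3K4me3, knockdown over scramble (y axis), against GC content in percent (x axis) for 31 of the compared receptor promoters (red, filled where called higher). The blue line and band are the median and middle 50% of all compared promoters in classes of 2% GC, and the dashed line is 1 kb background bins. Gabbr2, Grin2c, Grm4 and Grid1 lie above the band and Gabbr1 just below it.

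Other scalings moved the size of the group's difference but not its side. Scaled to the median of all compared promoters, which shifts every log2 ratio down by 0.41, 9 receptor promoters were called higher against 12.0% of all, with a median of 0.59. With the GC trend of all compared promoters removed there were 17 against 18.3%. Relative to background bins of the same GC content there were 7 against 7.23%, and with trends of both GC and level removed 10 against 14.1%. In 6 genes the call stood in all of these and in the scaling to background reads: Gabbr2, Grid1, Grin2c, Grin3a, Grm4 and Grm6. The other 12 lost it in at least 1 of these 5 scalings. Calls lost relative to the background bins included Gabrb2, Gabrg3, Grik3, Grik4, Grik5, Grin2a, Grin3b, Grm3 and Grm8. The ratio was positive in all 5 scalings for 28 of the 35. The share of all compared promoters with a positive ratio in all 5 was not counted. Of the 6 genes, Grin2c lost its call when enrichment in the scramble library or at least 50 reads were required. Grm6 lost its call with windows of 500 bases.

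CpG content separated receptor promoters with the mark from those without, much as it does over all genes. By the CpG density of 500-base windows, 33 of the 48 were in the high class, 10 intermediate and 5 low. H3K4me3 was found in the scramble library at 31 of the 33 (93.9%, against 95.9% of all high-CpG promoters), at 3 of the 10 (30.0% against 29.4%) and at 0 of the 5 (against 3.68%). The level differed more than the presence: high-CpG receptor promoters had a median of 6.01 RPM in the scramble library and 11.4 in the knockdown library, against 18.2 and 25.0 over all high-CpG promoters. Within that class 15 of 31 compared receptor promoters were called higher, against 25.7%.

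Jarid1b was called in both libraries at 10 of 48 receptor promoters (20.8%), against 7.96% of all promoters. The genes were Gabra2, Gabra5 and Gabrb2 for GABA, and Grik1, Grin2a, Grid1, Grm4, Grm6, Grm7 and Grm8 for glutamate. Grid1 stood highest at 12.4 and 12.0 times the genome rate, followed by Grm4 at 7.08 and 12.0, Grin2a at 7.08 and 8.78, and Grm8 at 7.37 and 7.19. Taken singly, replicate 1 gave 21 receptor promoters against 26.6% of all, and the shallower replicate 2 gave 13 against 10.8%. H3K4me3 was present in both H3K4me3 libraries at all 10, and 6 of them were called higher in the knockdown library, as were 12 of the 25 compared promoters without a Jarid1b call. Their median ratios were 1.15 and 0.85. Over all genes, 867 of 1758 compared promoters with a Jarid1b call (49.3%) were called higher, with a median of 0.98, against 24.0% of all compared promoters.

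Jarid1b reads also followed GC content. Over the receptor promoters Spearman's rho between GC and the fold was 0.81 and 0.76 in the Jarid1b libraries, and 0.77 and 0.67 over all promoters. Within GC bands, 2 of 14 receptor promoters at 50% to 55% were called against 5.13% of all, 4 of 12 at 55% to 60% against 14.8%, 2 of 6 at 60% to 65% against 29.6%, and 2 of 4 at 65% and above against 44.5%, the shares in the last pair of bands being close to the background. When background bins of the same GC content also set the expected count, only Grid1 and Grm4 remained, 2 of 48 against 0.617% of all promoters. No IgG library was used here, so the share of these reads that a control antibody would also give was not tested.

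**Figure D5:**
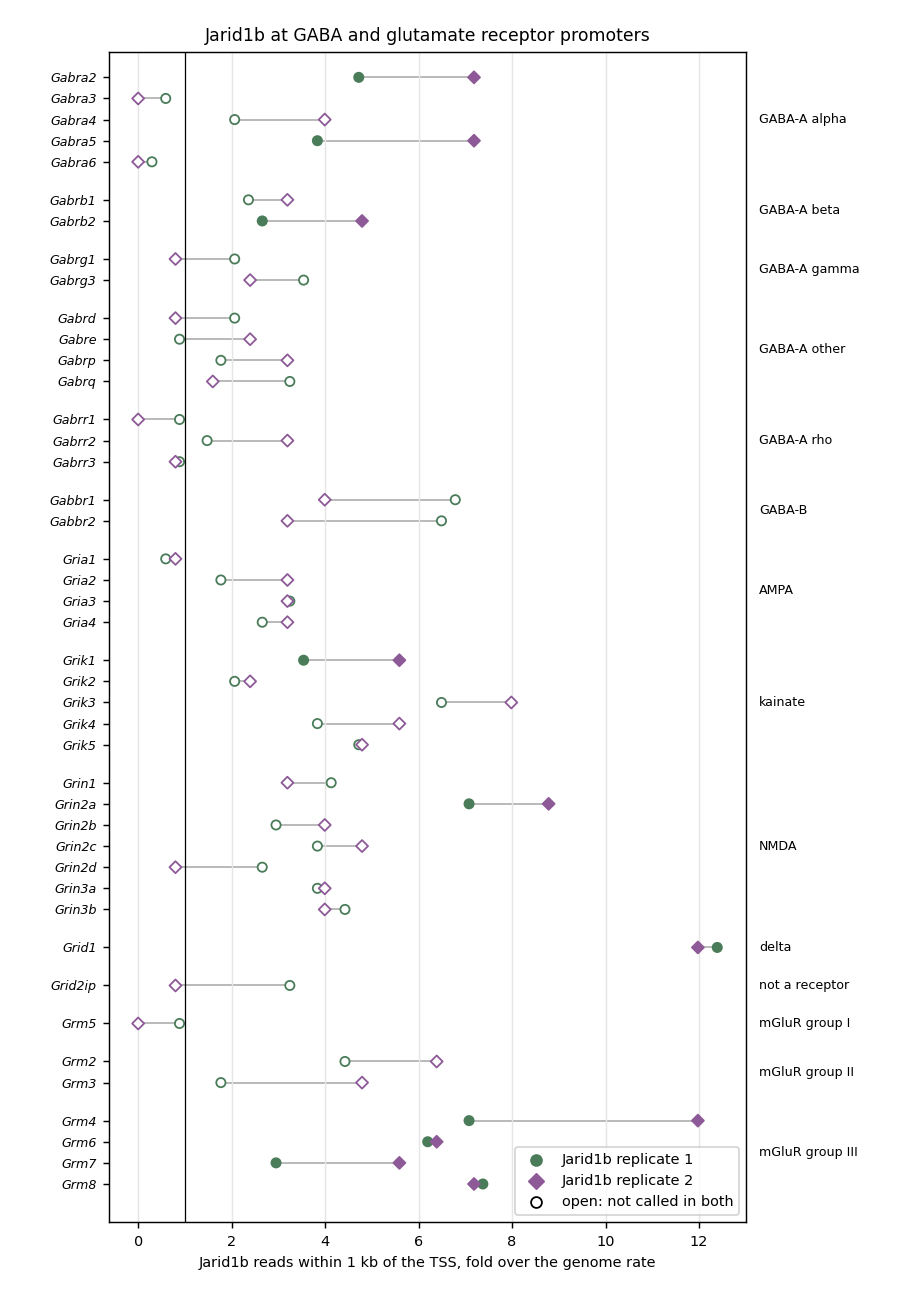
Jarid1b reads within 1 kb of the TSS as fold over the genome rate (x axis) for 43 of the genes by receptor class, in replicate 1 (green circles) and replicate 2 (purple diamonds). Filled symbols mark the 10 genes called in both, and the vertical line is the genome rate. Grid1 lies near 12 in both libraries.

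Many GABA-A genes lie side by side, and neighbours did not share a pattern. On chromosome 5 the order is Gabrg1, Gabra2, Gabra4 and Gabrb1, with the TSSs of Gabra4 and Gabrb1 pointing apart 41624 bases from each other. Gabra4 held 51 and 29 reads without a call and Gabrb1 14 and 17 with one. On chromosome 11 Gabra6 (2 and 0 reads) and Gabrb2 (17 and 18) point apart over 98685 bases. On chromosome 7 Gabrg3 and Gabra5 were marked in both libraries, with ratios of 1.01 and 0.97. On the X chromosome Gabre, Gabra3 and Gabrq held 1 to 11 scramble reads. The receptor genes were also long: their median length was 126324.5 bases against 15427 over all genes, and Grin3b was the shortest at 6476 bases.

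Genes that make, carry or respond to the same transmitters were taken as a list of 56, of which 55 had a promoter. Of these 41 were compared, 27 were called higher and 1 lower, with a median log2 ratio of 1.18, and 13 of the 55 (23.6%) were enriched for Jarid1b. Over all promoters the shares were 24.0% higher, 2.37% lower and 7.96% for Jarid1b, with a median ratio of 0.41. The highest ratios were in the AMPA receptor partners Cacng5 (9 scramble and 26 knockdown reads, ratio 2.50) and Shisa9 (23 and 60, ratio 2.35) and in Slc32a1, which loads GABA into vesicles (10 and 23, ratio 2.17). Slc32a1 also had the reads of a Jarid1b call, 33 and 14. The lowest were Gabarap, a GABA-A receptor trafficking and autophagy protein (94 and 21, ratio -1.19), and the glial glutamate transporter Slc1a3 (60 and 24, ratio -0.35, not called). Other Jarid1b-enriched members were Cacng3, Cacng4, Cnih3, Gls2, Glud1, Glul, Grip1, Homer2, Shank3, Slc1a1 and Slc1a2, with ratios from 0.33 in Glul to 1.92 in Grip1.

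Other channel genes were counted in the same way, and no difference from them was tested. Of 125 voltage-gated channel genes 75 were compared and 45 called higher (60.0%), with a median of 1.10, and 23 (18.4%) were enriched for Jarid1b. Of 21 glycine and acetylcholine receptor genes 7 (33.3%) carried H3K4me3 in the scramble library, 7 were compared, 3 were called higher and 1 lower, and the median was 0.69. Jarid1b was called at 0 of the 21. Over all promoters 60.0% carried H3K4me3 in the scramble library and 7.96% were enriched for Jarid1b. Of all compared promoters 24.0% were called higher and 2.37% lower. The voltage-gated channels lay near the receptors for GABA and glutamate in these values. The glycine and acetylcholine receptors had smaller shares with H3K4me3 and Jarid1b, with 7 of the 21 in the high CpG class and 10 in the low. Their median ratio had an interval of -2.49 to 1.55, too wide to place it below.

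Marker lists of several cell types were read in the same pair of libraries, and they did not all differ from the background. The summed H3K4me3 of 9 neural progenitor marker promoters was 42.5 RPM in the scramble library and 122 in the knockdown library, and 6 of 7 compared were called higher. For 11 neuron markers the sums were 91.9 and 113, with 1 of 8 called higher and Dcx and Rbfox3 at 0 in the knockdown library. For 10 stem cell markers the sums were 350 and 273, with 4 of 9 called lower and Esrrb at 0 in the knockdown library at its gene-level TSS. Fibroblast markers had sums of 54.5 and 94.9 (2 of 4 called higher, Lum at 0 in the scramble library, Col3a1 and Dcn at 0 in the knockdown library). The 4 extraembryonic endoderm markers with an unshared symbol had sums of 8.34 and 17.5, and both that were compared were called higher. Over all compared promoters 24.0% were called higher and 2.37% lower, with a median log2 ratio of 0.41, against 0.31 over the compared neuron markers. The neural progenitor markers had a median GC content of 61.7%, and at 60% to 65% GC 56.1% of all compared promoters were called higher. Of the 10 stem cell markers, 7 were in the intermediate CpG class, where the median ratio of all compared promoters was -0.13. The part of base composition in the marker ratios was not tested. Fewer marked cells and less mark per cell cannot be told apart in these libraries, and the part of cell composition in the receptor ratios was not tested.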

How the data were processed

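Each deposited file lists aligned reads by chromosome, start, end and strand, in bases, with no count, peak or usable score. Per the labels' protocols, the authors mapped reads to mm9 with Bowtie, of a version that the sources used here do not give. Those protocols also describe 1 match per position, MACS peaks and IgG normalization, but the deposited rows repeat positions, so they precede those steps.

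Rows fell into groups by the labels. On chromosomes 1 to 19, X and Y, 1 read per strand and 5′ position was kept (4336767 and 1602370 Jarid1b, 5158330 scramble and 2635705 knockdown reads), and repeats made up 7.56% to 31.5% of rows. Reads were shifted 75 bases. For 22367 genes, reads within 1 kb of the gene-level TSS were tested (Poisson, one-sided) against the genome-wide rate or the rate in the surrounding 10 kb, outside the window, whichever was larger. Benjamini-Hochberg adjustment ran over all genes, at 0.05. Ratios used RPM with exact Clopper-Pearson intervals. The p-values and the intervals of single ratios describe counting error alone, because each H3K4me3 condition has 1 library and the Jarid1b pair was counted as 1 sample. PCR copies also cannot be told from separate molecules without identifiers. The Wilson and order-statistic intervals were taken over promoters, which are not replicates. CpG classes used 500-base windows: high with at least 55% GC and observed over expected CpG of at least 0.6, low where none reached 0.4. Counting and tests were tested on simulated data. Python 3.11.15, numpy 2.4.6, scipy 1.17.1, pandas 2.3.3 and matplotlib 3.10.9 were used.

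The genes, lists and tests were chosen with earlier results of these data known. Genes given with reads in every library are those called or enriched for Jarid1b, the 3 highest and 3 lowest ratios, the 3 with most scramble reads and those marked in 1 H3K4me3 library. From the transmitter list they are the 3 highest and 2 lowest ratios and Jarid1b-enriched genes. Other genes, markers at 0 included, were named after their values were seen. Of 21 alternatives, 2 were added after seeing the data: removing the GC trend of background bins, and removing GC and level trends. A few genes picked by this rule are left out of the text and plots.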

Additional observations from a re-analysis of the deposited data

How the results depend on the processing

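Of the 35 compared receptor promoters, 0 were called lower under each alternative run, and the shares with H3K4me3 moved by less than their intervals. The count called higher, 18, became 9 with median scaling, 7 relative to background bins of the same GC content and 10 with GC and level trends removed, and the median ratio became 0.59, 0.50 and 0.67. It stayed between 14 and 21 under the others that bear on it. The 10 Jarid1b calls (against 7.96% of all promoters) became 19 against the genome rate only, where 24.8% of all promoters were called. They became 27 on pooled reads (34.3% of all) and 2 against a background of the same GC content (0.617% of all). Leaving out Jarid1b replicate 1 or 2 gave 13 and 21, against 10.8% and 26.6% of all. The cause of these shifts was not tested. With windows of 500 bases the Jarid1b count was 7 (5.70% of all promoters), of which 4 genes were among the 10. With 2 kb it was 12 (7.08% of all), of which 6 were.

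The values of single genes under alternatives numbered 504, and cover only genes still compared in each. Calls lost because a gene dropped out of the comparison are not among them. Grik5 and Grin2c dropped out when enrichment in the scramble library was required, for example. Of the 504 values, 443 kept their side of the rule and, where not called, stayed in their own interval. Another 39 fell below the rule and 16 passed it. The other 6, all of Gabbr1 or Gabra5, also kept their side but left their own interval. The sign changed in 0 values of called genes and in 13 values of 6 genes that were not called, Gabbr1, Gabrg1, Gria4, Gabra4 and Grin1 among them. No paired analysis was possible because the scramble and knockdown groups have 1 library each. Depth limits single promoters: replicate 2 held 1.25 reads per window at the genome rate, and thin genes such as Gabrg1 have intervals of several log2 units.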
